A study of Mus musculus with 6 samples.

Results

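Genes of ribosome biogenesis and of the nucleolus were followed in PA6 cells, a mouse bone stromal cell line used as a feeder layer, after 3 h in serum-free medium. The members were chosen by a rule on gene symbols, with earlier results of these data known. The rule took names that start with NOL, NOP, UTP or RRP and a digit, and the subunits POLR1A to POLR1E. It also took NCL, NPM1, NPM3, FBL, NOLC1, DKC1, GAR1, NHP2, RRS1, BOP1, PES1, WDR12, WDR43, GNL3, PPAN, DDX21, UBTF, TAF1D and TBP. On the array 48 of 30854 gene names met this rule, with 84 probes among them, and 38 of these genes were among the 11872 that were detected and tested. The names FBL, GAR1, NHP2 and UTP20 were not met in the table and were not analysed here under these names. The 10 members that were not tested had intensities between 103.6 and 238.3 before normalization. A probe without detection does not show that its gene was silent. NPM1, NOL5, NOL6, NOL10 and WDR43 each had 1 probe detected on all 6 arrays and another detected on none. All 48 members matched a symbol or synonym in RefSeq, and they are printed under the array's older names where these differ (NOL5A is Nop56, NOL5 is Nop58, NOL1 is Nop2, NOL14 is Nop14 and UTP11L is Utp11).

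There were 3 groups of 2 arrays. PA6 monolayers grown to confluence were either left untreated (-GFs) or given recombinant FGF2 at 20 ng/ml or recombinant BMP4 at 10 ng/ml, all in serum-free medium, so that the loss of serum was common to every group. Each biological replicate gave 1 well to each of the 3 media, so that arrays of the same replicate number belong together. The cells were a single line without embryonic stem cells on top, and 1 array was hybridised per well.

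The nucleolus is where RNA polymerase I transcribes the ribosomal RNA precursor. Small nucleolar ribonucleoproteins (snoRNPs) guide its chemical modification, a large complex called the small subunit processome cuts and folds the part that becomes the small subunit, and a further set of assembly factors and helicases builds the large subunit before both are exported. These factors are needed in large amounts by growing cells, and their genes are known to respond to serum and mitogens in many cell types.

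The arrays held between 15509 and 16459 probes with a detection p under 0.05, and their median intensities before normalization lay between 153.4 and 168.1. The stromal markers COL1A1, COL1A2, COL3A1, VIM, PDGFRB and CXCL12 were detected on all 6 arrays, and CDH5, PECAM1, PTPRC, CD68, NANOG and EPCAM on none. TEK, POU5F1 and CDH1 were detected on all 6 arrays at low intensity, with a highest value of 353.6 for TEK. Values below are log2 of the normalized intensity, and they compare arrays for 1 probe, never 1 gene with another. The arrays were brought to a common distribution, so that more cells, more RNA per cell and a shift shared by all genes cannot be told apart in these data.

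With FGF2, 35 of the 38 tested members were higher than in -GFs medium. Their median log2 fold change was 0.67, while the median over all 11872 genes was -0.02 and 47.5% of these were higher. In limma's test with Benjamini-Hochberg adjustment over all genes, 16 members rose at an adjusted p under 0.1, which is 42.1% of the 38 beside 6.03% of all genes, and none fell, beside 5.78% of all genes. By the methods' threshold, which also asks for a log2 fold change beyond 1, 12 members rose (31.6%, beside 2.28% of all genes) and none fell (beside 1.25%). Of the 16, UTP14A and UTP15 were not detected in -GFs medium and entered the test through a group where they were high. With detection required on all 6 arrays 14 members rose, beside 6.43% of all genes detected in that way. At an unadjusted p under 0.05, 24 members were higher (beside 11.2% of all genes) and 1 was lower (beside 12.1%). Both FGF2 arrays lay above both -GFs arrays for 27 of the 38 members, a pattern seen in 24.6% of all genes, and below both for 2 members, seen in 29.1% of all genes. The 24 and the 27 each include UTP14A, UTP15 and NOLC1, which entered the test through groups where they were high. In replicate 1 taken alone the members' median difference was 0.49, with 33 of 38 higher, and in replicate 2 it was 0.72, with 36 of 38 higher.

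The members that rose differed in number between the roles. Of the assembly factors of the large subunit 6 of 11 tested rose, of the small subunit processome 7 of 12, of the snoRNP proteins 2 of 3, of RNA polymerase I and its factors 1 of 8, and of the nucleolar chaperones NCL, NPM1 and NPM3 none of 3. The median log2 fold changes of these roles were 1.19, 0.75, 1.43, 0.21 and 0.39 in the same order. With the replicate block the counts were 8 of 11, 12 of 12, 3 of 3, 3 of 8 and 2 of 3. Of all genes 6.03% rose without the block and 18.1% with it. Among the small subunit counts are UTP14A and UTP15, and with the block NOLC1 is among the snoRNP proteins. These genes entered the test through groups where they were high. The differences between roles were not tested.

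The spread between replicate wells was large for some members and shared by the 3 media. When the replicate number was added to the model as a block, 28 members rose with FGF2 (73.7%, beside 18.1% of all genes) and 1 fell (beside 19.6%), and 14 rose past the fold as well (beside 2.51%). The 28 include UTP14A, UTP15 and NOLC1, which entered the test through groups where they were high. Leaving out FGF2 replicate 1 left 5 members past the adjusted p and FGF2 replicate 2 left 4, in both cases all of them past the fold, while the share of all genes that rose dropped to 1.02% and 0.59%. DDX21, GNL3, NOL10 and WDR43 rose whichever of the 6 arrays was left out. The methods name an unpaired t-test for the study's statistics in general and limma for the arrays. That t-test, adjusted over all genes, called no member and none of the 11872 genes. Without adjustment 11 members were higher with a p under 0.05 in it. The share of all genes at that p was not counted, so the 11 cannot be set against it.

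**Figure D1:**
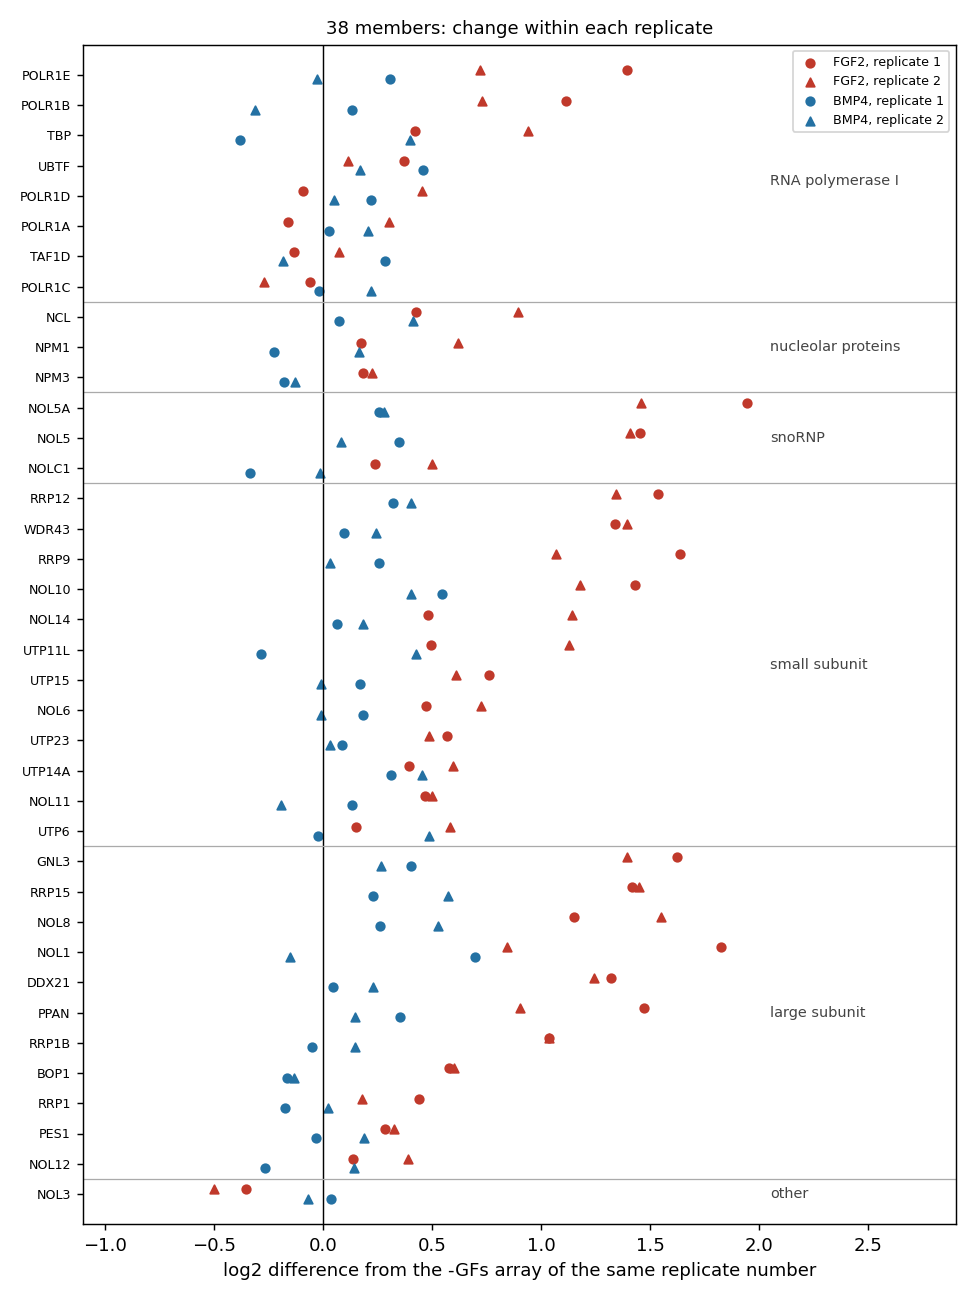
Log2 difference from the -GFs array of the same replicate number (horizontal axis) for the 38 tested members, grouped by role and, within a role, ordered by their fitted change with FGF2. Red marks are FGF2 and blue marks BMP4, with circles for replicate 1 and triangles for replicate 2. The FGF2 marks lie right of 0 for 33 members in replicate 1 and 36 in replicate 2, and the BMP4 marks for 26 and 27.

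Promoter sequences of members that rose together are shown here because the E-box CACGTG, the site of MYC and related factors, is known from promoters of ribosome biogenesis genes. They are the 250 bases upstream of the start of the gene in RefSeq's annotation of GRCm38.p6, in lower case with CACGTG in capitals. NOL5A and GNL3 are given as the members with the largest rise, NOL1 as a member that rose and holds the motif, and NOL11 as a member that passed the test only with the replicate block and holds it. Their positions are chr2:130274162-130274411 on the plus strand for NOL5A, chr14:31019132-31019381 on the minus strand for GNL3, chr6:125131633-125131882 on the plus strand for NOL1 and chr11:107189382-107189631 on the minus strand for NOL11.
NOL5A: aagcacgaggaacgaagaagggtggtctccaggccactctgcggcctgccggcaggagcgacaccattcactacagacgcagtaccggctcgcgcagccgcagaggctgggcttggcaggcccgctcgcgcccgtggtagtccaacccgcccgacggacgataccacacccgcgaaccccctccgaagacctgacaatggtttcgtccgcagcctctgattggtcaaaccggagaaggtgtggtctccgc
GNL3: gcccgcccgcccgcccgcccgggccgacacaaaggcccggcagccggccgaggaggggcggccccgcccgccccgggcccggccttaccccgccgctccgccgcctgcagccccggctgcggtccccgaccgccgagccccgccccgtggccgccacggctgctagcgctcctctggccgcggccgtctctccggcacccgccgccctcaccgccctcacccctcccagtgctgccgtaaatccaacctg
NOL1: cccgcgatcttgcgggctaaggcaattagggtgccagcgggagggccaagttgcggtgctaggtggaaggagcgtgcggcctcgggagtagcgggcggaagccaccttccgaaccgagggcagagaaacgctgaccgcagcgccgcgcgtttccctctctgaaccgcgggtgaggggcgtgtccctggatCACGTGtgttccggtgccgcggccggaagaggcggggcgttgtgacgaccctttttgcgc
NOL11: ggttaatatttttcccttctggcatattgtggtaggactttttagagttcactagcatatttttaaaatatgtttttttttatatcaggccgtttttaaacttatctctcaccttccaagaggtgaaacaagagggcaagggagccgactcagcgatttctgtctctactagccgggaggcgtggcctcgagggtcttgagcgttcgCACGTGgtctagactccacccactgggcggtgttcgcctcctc
The motif began at position -60 from the start in NOL1 and at -43 in NOL11, and the windows of NOL5A and GNL3 did not hold these letters. CACGTG reads the same on both strands. In windows of 300 bases, from 250 before the start to 50 after it, it was met in 2 of 14 members that rose past the adjusted p and have a window (14.3%, NOL1 and WDR43) and in 2 of 16 tested members that did not rise in the fit without the block (12.5%, NOL11 and PES1). Among all genes tested whose array name is a RefSeq symbol the share was 12.1% of 6161, and among all 27025 genes with a window 8.09%. Over all 38 members with a window, tested or not, it was 18.4%, and over 77 other ribosome biogenesis factors 23.4%. The differences between these shares were not tested.

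Of the core box C/D snoRNP proteins, which guide ribose methylation of ribosomal RNA, both tested members rose by more than 2-fold. NOL5A measured 10.04 and 10.52 in -GFs medium, 11.99 and 11.98 with FGF2 and 10.30 and 10.80 with BMP4. Its log2 fold change with FGF2 was 1.70 ± 0.23 (SE, adjusted p = 0.014), the largest of the 38 members and number 51 of all 11872 genes. Its FGF2 arrays stood apart from the other 4 and lay within 0.01 of each other. NOL5, its partner in the same particle, measured 10.36 and 9.85 in -GFs medium, 11.81 and 11.25 with FGF2 and 10.71 and 9.93 with BMP4. It rose by 1.43 ± 0.32 (adjusted p = 0.0524), with replicate 2 the lower array in each of the 3 media. NOLC1, a chaperone of snoRNPs, measured 7.73 and 7.57 in -GFs medium, 7.97 and 8.06 with FGF2 and 7.39 and 7.55 with BMP4, and its change of 0.37 ± 0.15 did not pass the test (adjusted p = 0.206, and 0.0589 with the replicate block). It was detected on both FGF2 arrays, on 1 -GFs array and on no BMP4 array, so that it entered the test through the FGF2 group. DKC1, the pseudouridine synthase of the box H/ACA particles, was detected on none of the 6 arrays. NOLA1, the array's older name of Gar1 from the same particle, lies outside the rule and was higher by 1.04 ± 0.19 (adjusted p = 0.0286), NOLA2 (Nhp2) by 0.76 ± 0.26 (adjusted p = 0.144, and 0.000505 with the block), and NOLA3 (Nop10) measured a change of -0.07 ± 0.15.

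Among factors of the small subunit, all 12 tested members were higher with FGF2 (beside 47.5% of all genes), with log2 fold changes between 0.37 and 1.44. RRP12, needed for the maturation and export of pre-ribosomes, measured 9.92 and 10.74 in -GFs medium, 11.46 and 12.08 with FGF2 and 10.25 and 11.14 with BMP4. Replicate 2 was the higher array in each medium, and the change of 1.44 ± 0.39 passed the test (adjusted p = 0.0844). WDR43, of the subcomplex that links transcription of ribosomal RNA to its processing, measured 9.64 and 9.65 in -GFs medium, 10.98 and 11.04 with FGF2 and 9.74 and 9.89 with BMP4. The 2 -GFs arrays differed by 0.01 and the rise of 1.37 ± 0.14 had an adjusted p of 0.00777. NOL10, another processome protein, measured 10.05 and 10.20 in -GFs medium, 11.47 and 11.38 with FGF2 and 10.59 and 10.60 with BMP4. It rose by 1.30 ± 0.15 (adjusted p = 0.00852), and its BMP4 arrays lay between the other groups.

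The other small subunit factors moved by less or varied more between wells. NOL14 measured 10.00 and 9.50 in -GFs medium, 10.48 and 10.64 with FGF2 and 10.06 and 9.69 with BMP4, with a change of 0.81 ± 0.22 (adjusted p = 0.0846) and no overlap between the FGF2 arrays and the others. UTP14A, which activates a helicase of the processome, measured 7.30 and 7.15 in -GFs medium, 7.70 and 7.74 with FGF2 and 7.61 and 7.61 with BMP4. It was not detected on either -GFs array, so that it entered the test through the treated groups. The fitted change of 0.49 ± 0.14 with FGF2 (adjusted p = 0.0972) used the undetected -GFs values. Against the detection level of those arrays its rise was at least 1.09-fold, a bound that was not tested. UTP15, of the same subcomplex as WDR43, measured 7.11 and 7.26 in -GFs medium, 7.87 and 7.87 with FGF2 and 7.28 and 7.25 with BMP4. It was detected on the FGF2 arrays alone, so that it entered the test through that group. The fitted change of 0.68 ± 0.14 (adjusted p = 0.0423) used the undetected -GFs values. Against the detection level it was at least 1.21-fold higher than in -GFs medium, a bound that was not tested. UTP23 rose by 0.53 ± 0.15 (adjusted p = 0.0921). RRP9, a protein of the snoRNP that starts the processome, measured 9.13 and 10.22 in -GFs medium, 10.77 and 11.29 with FGF2 and 9.39 and 10.25 with BMP4. Its change was 1.35 ± 0.42, but its 2 -GFs arrays differed by 1.08 and the adjusted p was 0.116 (3.37e-06 with the block). UTP11L, NOL6, NOL11 and UTP6 measured changes between 0.37 and 0.81 and passed the test only with the block, as did RRP9. RRP7A, UTP3, UTP14B and UTP18 were detected on no array.

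All 11 tested factors of the large subunit were higher with FGF2 (beside 47.5% of all genes), and 6 of them rose past the fold (beside 2.28%). GNL3, the nucleolar GTP-binding protein known as nucleostemin, measured 12.01 and 12.04 in -GFs medium, 13.63 and 13.43 with FGF2 and 12.41 and 12.30 with BMP4. It rose by 1.51 ± 0.15 (adjusted p = 0.0076), which was number 84 of all genes. RRP15 measured 10.30 and 10.32 in -GFs medium, 11.71 and 11.76 with FGF2 and 10.53 and 10.89 with BMP4. Its rise was 1.43 ± 0.17 (adjusted p = 0.00984), with arrays of the -GFs and FGF2 groups that differed by 0.05 or less within a group. NOL1, a methyltransferase of ribosomal RNA, measured 9.01 and 9.97 in -GFs medium, 10.83 and 10.81 with FGF2 and 9.70 and 9.81 with BMP4. The -GFs arrays differed by 0.96 and the rise of 1.33 ± 0.29 had an adjusted p of 0.0488. DDX21, an RNA helicase of the nucleolus, measured 9.92 and 9.91 in -GFs medium, 11.24 and 11.15 with FGF2 and 9.97 and 10.14 with BMP4. It rose by 1.28 ± 0.15 (adjusted p = 0.00892), with arrays of a group that differed by 0.17 or less. PPAN, an assembly factor of the early pre-60S particle, measured 10.94 and 11.80 in -GFs medium, 12.41 and 12.70 with FGF2 and 11.29 and 11.94 with BMP4. Its rise was 1.19 ± 0.33 (adjusted p = 0.0897), with replicate 2 the higher array in each medium. RRP1B measured 10.08 and 10.06 in -GFs medium, 11.12 and 11.09 with FGF2 and 10.03 and 10.20 with BMP4 and rose by 1.04 ± 0.14 (adjusted p = 0.0147). The FGF2 arrays of these 6 genes lay above all 4 other arrays, which their choice by the rise with FGF2 favours.

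PES1, BOP1 and WDR12 form a complex needed for processing of the large subunit's RNA, and none of these genes passed the test without the block. PES1 measured 11.00 and 11.39 in -GFs medium, 11.29 and 11.71 with FGF2 and 10.97 and 11.58 with BMP4, a change of 0.30 ± 0.26 (adjusted p = 0.546, and 0.111 with the block). BOP1 measured 9.65 and 10.05 in -GFs medium, 10.23 and 10.64 with FGF2 and 9.48 and 9.91 with BMP4, a change of 0.59 ± 0.24 (adjusted p = 0.198, and 0.00332 with the block). WDR12 was detected on no array and not tested. NOL8 changed by 1.35 ± 0.42 (adjusted p = 0.112, and 2.02e-06 with the block), with -GFs arrays at 9.76 and 8.72. RRP1 and NOL12 changed by 0.31 ± 0.18 and 0.26 ± 0.19 and passed neither test. RRS1 and NOL9 were detected on at most 2 arrays and were not tested.

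**Figure D2:**
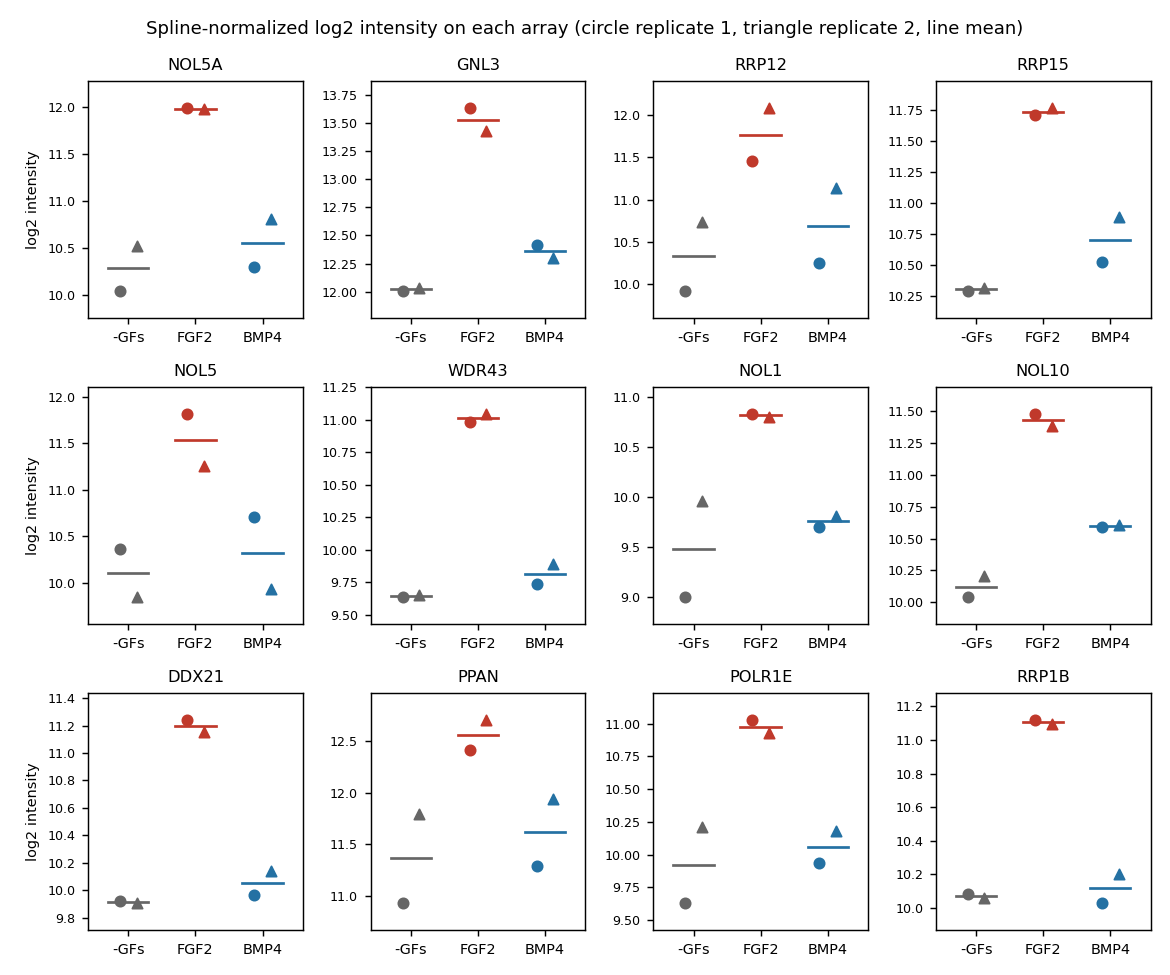
Log2 normalized intensity (vertical axes, each with its own range that does not start at 0) of the 12 members that rose past the adjusted p and the fold with FGF2, on each of the 6 arrays. Circles are replicate 1, triangles replicate 2 and lines the group means. In each of the 12 panels both FGF2 arrays lie above the 4 others. The 12 were chosen by their rise over -GFs medium, so that this separation is no further support for it. For RRP12, NOL5 and PPAN the arrays of a group differ by more than for WDR43, DDX21 and RRP1B.

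Of the 8 tested subunits and factors of RNA polymerase I, 1 rose (beside 6.03% of all genes). POLR1E, a subunit of the polymerase's heterodimer, measured 9.63 and 10.21 in -GFs medium, 11.03 and 10.93 with FGF2 and 9.94 and 10.18 with BMP4, a rise of 1.06 ± 0.22 (adjusted p = 0.0416). POLR1B, the second largest subunit, measured 9.02 and 9.83 in -GFs medium, 10.14 and 10.56 with FGF2 and 9.15 and 9.52 with BMP4. Its FGF2 arrays lay above both -GFs arrays, and the change of 0.92 ± 0.30 did not pass the test (adjusted p = 0.124, and 0.000145 with the block). POLR1A, the largest subunit, measured 11.68 and 11.62 in -GFs medium, 11.52 and 11.92 with FGF2 and 11.71 and 11.83 with BMP4, a change of 0.07 ± 0.18 (adjusted p = 0.849), with groups that overlapped, and -0.0068 with each array scaled to its median. UBTF, the factor that binds along the ribosomal RNA genes, measured 10.23 and 10.81 in -GFs medium, 10.60 and 10.93 with FGF2 and 10.69 and 10.98 with BMP4. Its change was 0.24 ± 0.24 (adjusted p = 0.608), and its groups overlapped too. POLR1C and POLR1D, which RNA polymerase III shares, changed by -0.17 ± 0.20 and 0.18 ± 0.20, and TAF1D by -0.03 ± 0.35. None of these 5 passed the test with the block either (lowest adjusted p = 0.217).

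TBP, the TATA-box binding protein that serves all 3 nuclear RNA polymerases, is also the gene to which the study's methods normalize real-time PCR. It measured 9.51 and 9.26 in -GFs medium, 9.93 and 10.19 with FGF2 and 9.12 and 9.65 with BMP4. Both FGF2 arrays lay above both -GFs arrays, and the change of 0.68 ± 0.22 did not pass the test (adjusted p = 0.127) but did with the replicate block (adjusted p = 0.00483). The 4 tested probes of TBP gave log2 fold changes of 0.16, 0.29, 0.49 and 0.68, the last from the brightest probe.

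NPM1 and NCL, abundant nucleolar chaperones, had the widest gaps between -GFs replicates of the 38 members. NCL, nucleolin, measured 9.40 and 8.30 in -GFs medium, 9.82 and 9.19 with FGF2 and 9.48 and 8.71 with BMP4. Its change with FGF2 was 0.66 ± 0.42 (adjusted p = 0.403, and 0.00263 with the block). NPM1, nucleophosmin, measured 14.52 and 13.40 in -GFs medium, 14.69 and 14.02 with FGF2 and 14.29 and 13.57 with BMP4, a change of 0.39 ± 0.43 (adjusted p = 0.635, and 0.052 with the block). For both genes the groups overlapped, and replicate 2 was the lower array in every medium. NPM3, of the same family as NPM1, measured 13.00 and 13.14 in -GFs medium, 13.18 and 13.36 with FGF2 and 12.82 and 13.01 with BMP4, a change of 0.20 ± 0.16 (adjusted p = 0.494).

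For several members with wide gaps between replicates, the gaps ran the same way in the 3 media. In -GFs medium, replicate 2 was below replicate 1 by 1.11 for NPM1, 1.10 for NCL, 1.04 for NOL8 and 0.80 for UTP11L, and above it by 1.08 for RRP9 and 0.86 for PPAN. The corresponding gaps with FGF2 were -0.67, -0.63, -0.65, -0.17, 0.52 and 0.29, and with BMP4 -0.72, -0.76, -0.78, -0.09, 0.86 and 0.65. NOL1 did not share this, with gaps of 0.96 in -GFs medium, -0.02 with FGF2 and 0.11 with BMP4. Across the 38 members the correlation of the gaps was 0.72 between FGF2 and -GFs and 0.80 between BMP4 and -GFs, as a description over genes that share the same arrays, and over all 11872 genes it was 0.60 and 0.74. These gaps enter the spread of the test without the block. What set the replicates apart was not tested.

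**Figure D3:**
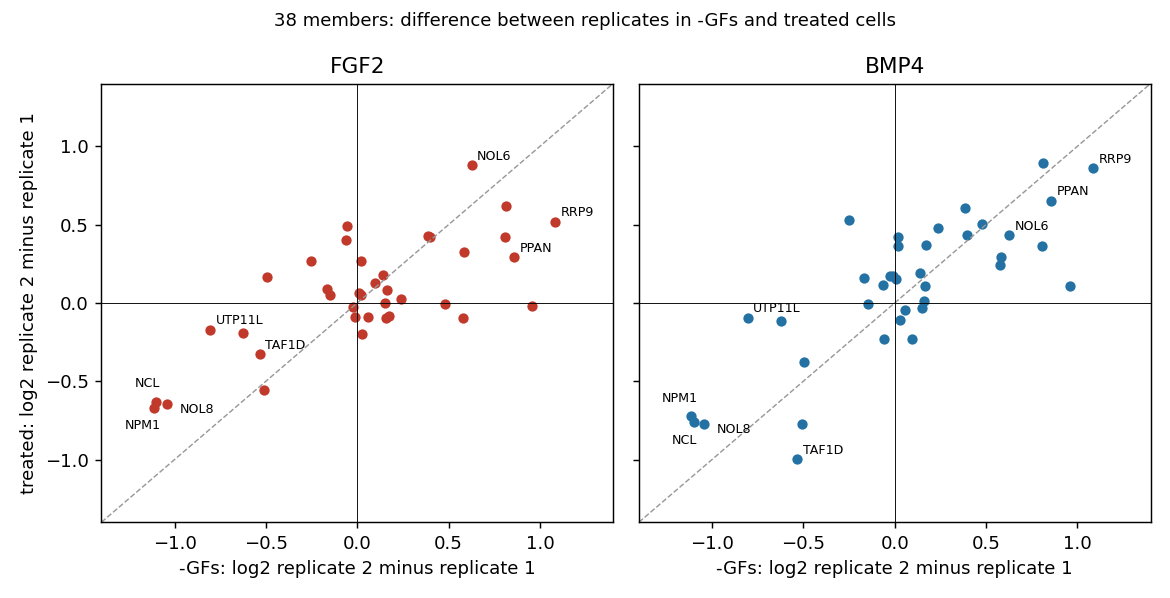
Difference between replicate 2 and replicate 1 (log2 intensity) of the 38 members in -GFs medium (horizontal axis) against the same difference with FGF2 (left panel, vertical axis) or BMP4 (right panel). The dashed line marks equal gaps. NCL, NPM1 and NOL8 lie at the lower left and RRP9, PPAN and NOL6 at the upper right in both panels, so that these members differed between replicates in each medium.

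Of the 12 members with more than 1 tested probe, each had probes that changed in the same direction as its brightest one upon FGF2. GNL3 was higher by 1.51, 1.47 and 1.09 with its 3 probes, each past the adjusted p over all 16111 probes. DDX21 rose by 1.28 and 1.38 with its 2 probes, and PPAN by 1.19 and 0.80. RRP1B rose by 1.04 and 0.91 with 2 probes, and its remaining probe measured 0.67 (adjusted p = 0.22). NOL1 was less even, with 1.33 (adjusted p = 0.0511), 1.02 (adjusted p = 0.167) and 0.51 (adjusted p = 0.216). For POLR1A the brightest probe measured 0.07 and the other 2 measured 0.37 and 0.40, none of them past the test. The -GFs and FGF2 arrays overlapped for the brightest probe, and for the other 2 both FGF2 arrays lay above both -GFs arrays.

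**Figure D4:**
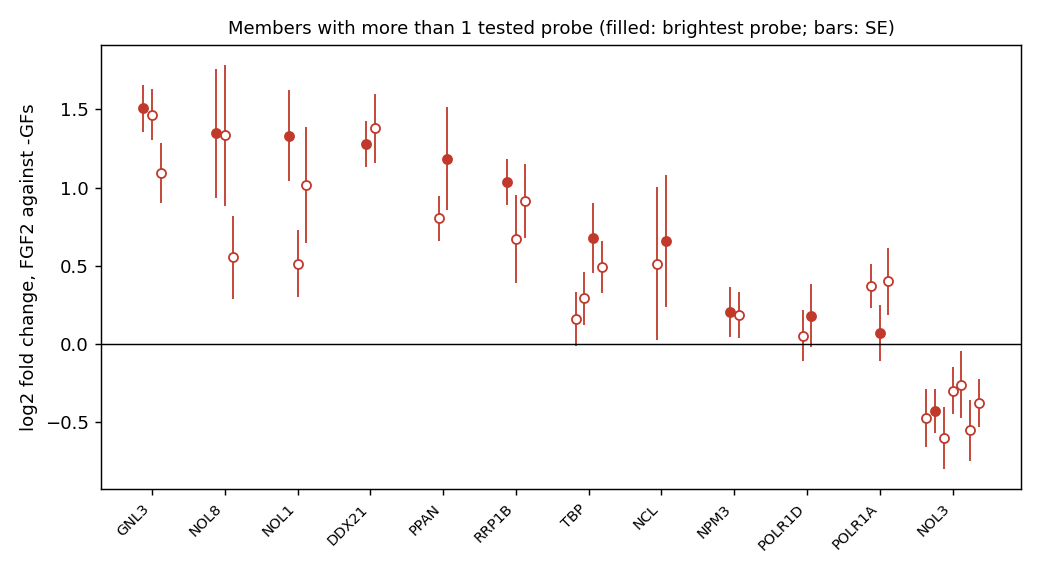
Log2 fold change upon FGF2 (vertical axis) for every tested probe of the 12 members that have more than 1, with the SE of the fit over all probes as bars. Filled points are the brightest probe of a gene, which stands for it in the rest of the text. The probes of GNL3, DDX21, RRP1B and PPAN lie above 0.5 and the 7 probes of NOL3 below 0.

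NOL3 met the rule by its name but encodes a repressor of apoptosis and not a ribosome assembly factor. It measured 10.42 and 10.48 in -GFs medium, 10.06 and 9.98 with FGF2 and 10.45 and 10.41 with BMP4. The change with FGF2 was -0.43 ± 0.14 (adjusted p = 0.127), and with the replicate block it fell (adjusted p = 0.0252), the only member to do so. Its 7 tested probes gave changes between -0.60 and -0.26. NOL4 and NOL7 were detected on no array.

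With BMP4, no member passed the test in either direction, beside 0.00842% of all genes for a rise and 0% for a fall. With the replicate block the count for members was 0 again, beside 0.168% of all genes that rose and 0.0505% that fell. The methods' threshold and the methods' adjusted t-test likewise called no member. At an unadjusted p under 0.05, 2 members were higher without the block (beside 0.775% of all genes) and 7 with it (beside 3.22%), and none was lower (beside 1.04% and 3.81%). The 2 were NOL10 and UTP14A, and UTP14A is among the 7 as well. UTP14A was not detected in -GFs medium and entered the test through groups where it was high. Changes with BMP4 lay between -0.18 and 0.47 with a median of 0.12, while the median over all genes was 0.00, and 29 of 38 members were higher beside 50.4% of all genes. NOL10 had the largest change with BMP4, 0.47 ± 0.15 (adjusted p = 0.999, and 0.309 with the block). GNL3 measured 0.34 ± 0.15, RRP15 0.40 ± 0.17 and NOL5A 0.27 ± 0.23. A change of this size could not be told from the spread with 2 arrays per group, and the members' median dropped to 0.024 without -GFs replicate 1 and to 0.055 without BMP4 replicate 2.

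The difference between the growth factors was tested directly, on FGF2 arrays that the first comparison also used. Against BMP4, 10 members were higher with FGF2 at an adjusted p under 0.1 (beside 4.84% of all genes) and none lower (beside 4.22%), and 6 were higher past the fold (beside 2.03%) and none lower (beside 1.04%). These 6 were NOL5A (1.43 ± 0.23, adjusted p = 0.0252), NOL5 (1.21 ± 0.32, 0.0899), WDR43 (1.20 ± 0.14, 0.0106), GNL3 (1.17 ± 0.15, 0.0127), DDX21 (1.14 ± 0.15, 0.0127) and RRP15 (1.03 ± 0.17, 0.0255). NOL10, POLR1E and RRP1B were higher by less than 2-fold. UTP15, detected on no BMP4 array, was at least 1.22-fold higher and entered the test through the FGF2 group. With detection required on all 6 arrays 9 members were higher, and the share of all genes was not counted for that setting. With the block 28 members were higher (beside 16.3%), 10 of them past the fold (beside 2.3%), and NOL3 was lower (beside 17.8%). The 28 include UTP15 and NOLC1, which entered the test through the FGF2 group. The calls of members against BMP4 were lost when either FGF2 array was left out, which leaves 1 array in that group.

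Other factors of ribosome biogenesis, outside the naming rule, were mostly higher with FGF2 as well. The list was also drawn up with earlier results of these data known. Of 114 listed genes 107 were on the array and 90 were tested, under 96 array names. With FGF2, 90 of the 96 were higher (beside 47.5% of all genes), with a median of 0.56. Past the adjusted p 31 rose (beside 6.03% of all genes) and 1 fell (beside 5.78%), and 17 rose past the fold as well (beside 2.28%). With the block 71 rose (beside 18.1% of all genes) and 2 fell (beside 19.6%). These names passed the same detection filter as the members, so that some may have entered the test through a group where they were high. How many did was not counted. Some genes are counted under more than 1 array name. Without the block, RBM13 and MAK16 are both Mak16 and both past the fold, and TRB and AATF are both Aatf and both past the adjusted p. RBM13, an older name of Mak16 from the large subunit pathway, rose by 1.52 (adjusted p = 0.00777) and BXDC1 (Rpf2), which brings the 5S particle into the large subunit, by 1.46 (adjusted p = 0.00986). HEATR1, of the same subcomplex as WDR43, rose by 1.32 (adjusted p = 0.0306). TSR1, an assembly factor of the small subunit, was the one that fell, by 0.92 on the log2 scale (adjusted p = 0.017). With BMP4 none of the 96 passed the test (beside 0.00842% of all genes for a rise), and their median was 0.14.

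Cytosolic ribosomal proteins, the structural parts of the ribosome, lay around 0. Of 59 tested names 28 were higher with FGF2, the median change was -0.02 on the log2 scale and the changes ran from -0.55 to 0.62. RPL13A was lower by 0.55 on the log2 scale (adjusted p = 0.092, and 0.00749 with the block). None rose without the block (beside 6.03% of all genes), and with it RPS15A, at 0.62, did (adjusted p = 0.181, and 0.0071 with the block, where 18.1% of all genes rose). The median size of the change, whatever its sign, was 0.07 for ribosomal proteins, 0.24 for all genes and 0.67 for the members. Ribosomal protein transcripts share sequence with many pseudogenes, so that a probe's source is less certain for them.

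**Figure D5:**
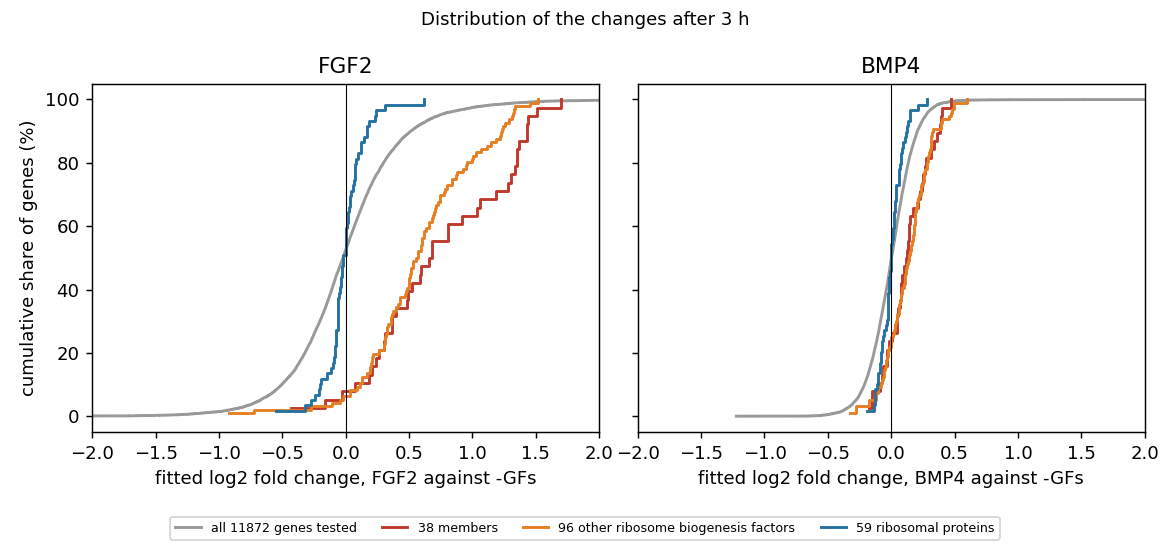
Cumulative share of genes (vertical axis, %) against the fitted log2 fold change (horizontal axis, shown from -2 to 2) with FGF2 (left) and BMP4 (right). Lines are all 11872 tested genes, the 38 members, the 96 other ribosome biogenesis factors and the 59 ribosomal proteins. With FGF2 the curves of members and other factors lie to the right of all genes, with medians of 0.67 and 0.56, and the ribosomal proteins rise steeply at 0. With BMP4 the medians are 0.12, 0.14 and 0.00.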

How the data were processed

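RNA of 6 cultures of PA6 cells was hybridised to Illumina MouseWG-6 v2.0 BeadChips, 1 array each, and samples were grouped by the labels. The authors deposited intensities, the mean brightness of each probe's beads on a linear scale, exported with GenomeStudio 2011.01 (per the labels) without normalization between arrays, and a detection p-value per probe. Columns of the table without a heading that hold values (9) and 6 lines at its end were not used. In R 4.3.3 the cubic spline normalization of the methods was re-implemented (452 quantiles), values were converted to log2, and a probe was kept if both arrays of any 1 group had its detection p under 0.05 (16111 of 45281 probes). The probe with the largest mean represented a gene. limma 3.58.1 (lmFit, eBayes) was fitted to all 6 arrays and 3 groups, with Benjamini-Hochberg adjustment over 11872 genes and calls at an adjusted p under 0.1, with or without an absolute log2 fold change above 1. An exact permutation test of 2 arrays against 2 cannot go below p = 0.333. The scripts were tested on simulated data. The number of arrays limits the precision.

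The labels state that each biological replicate supplied 1 well per medium, so replicate numbers pair the arrays. As a check, deviations of same-numbered arrays correlated at 0.602 (FGF2 with -GFs), 0.741 (BMP4 with -GFs) and 0.579 (FGF2 with BMP4) over all genes. The methods name limma and the threshold but give no model terms. The fit without the block is reported, and the blocked value beside it where it changes a call.

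The members and lists were chosen with earlier results of these data known. Array values are given for members past the adjusted p and the fold, and for a fixed choice of members per role. The other members are given by fold changes, counts and ranges. Both treatments share the -GFs arrays. Promoter windows and current symbols come from RefSeq (GRCm38.p6), and 38 of the 48 members had a window. Alternatives were quantile normalization, neqc (offset 16), scaling each array to the median, detection on all 6 arrays, no detection filter, every probe on its own, the replicate block, the methods' t-test and leaving out each array. Co-cultures were not analysed here.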

Additional observations from a re-analysis of the deposited data

How the results depend on the processing

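The members' rise with FGF2 kept its direction under every alternative run. Their median log2 fold change of 0.67 became 0.88 with neqc and 0.49 without the detection filter, and lay between 0.58 and 0.76 when 1 array was left out. With neqc 12 members rose (beside 4.67% of all genes), all of them past the fold. Among these 12 were UTP14A and UTP15, which were not detected in -GFs medium and were below the fold in the main fit. For the 16 members past the adjusted p, with 1 array left out the count lay between 4 (without FGF2 replicate 2) and 16, with 5 without FGF2 replicate 1, and past the fold between 4 and 13. The replicate block gave 28 higher (beside 18.1% of all genes) and 1 lower (beside 19.6%). Scaling to the median gave 12 higher (beside 4.23%), 9 past the fold, and 1 lower. The methods' t-test with adjustment gave 0 and 0 past the fold. At an unadjusted p under 0.05 it gave 11 higher, with no share of all genes counted beside it. Scaling to the median also moved the split over all genes from 716 higher and 686 lower to 502 and 910, past the fold from 271 and 148 to 208 and 209 (432 and 362 with neqc), and the median of all genes from -0.02 to -0.10. For BMP4 the count of members was 0 under every alternative run, and the median of 0.12 became 0.034 with scaling to the median, 0.0825 without the detection filter, 0.0776 with every probe, and 0.0241 to 0.160 with 1 array left out. Against BMP4 the FGF2 median of 0.64 became 0.79 with neqc, 0.71 with detection on all 6 arrays, 0.45 without the filter and 0.50 with every probe. The count of 10 became 28 with the replicate block (1 lower, 10 past the fold), 0 and 0 past the fold with the methods' t-test, and 0 to 15 with 1 array left out (0 to 9 past the fold). Of 528 values of single members under an alternative, 436 kept direction and side of the threshold, 63 lost the call, 22 gained it and 7 changed sign, and 33 of 38 members had no change of sign. With 1 array left out the sign changed for NPM1 (-0.16 to 0.95), POLR1A (-0.13 to 0.27), POLR1D (-0.066 to 0.43), TAF1D (-0.30 to 0.23, and 0.13 without FGF2 replicate 2) and UBTF (-0.052 to 0.53), and with scaling to the median for POLR1A (-0.0068). The causes were not tested. Leaving out an array leaves 1 in its group, assumed to vary like the others. With 2 arrays per group, a change that missed the threshold is not shown to be absent, and a member not detected in a group has only a lower bound against it (UTP15 and UTP14A against -GFs, UTP15 and NOLC1 against BMP4).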
